A study of Mus musculus with 12 samples.

Results

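Transcripts of the genes that remove methylated cytosine were examined in mouse induced pluripotent stem (iPS) cells labelled Aid+/+ or Aid-/-, that is with or without the cytidine deaminase Aid. The genes described are the 3 Tet dioxygenases Tet1, Tet2 and Tet3, the DNA glycosylases Tdg, Mbd4, Smug1 and Ung, the adaptor genes Gadd45a and Gadd45b, and Apex1. They were chosen by name, as genes of TET oxidation and base excision, and every array probe whose transcript accession belongs to one of them was taken. All 10 genes were found, with 16 probes, among 20660 named genes and 55681 probes. Tet1 and Tet2 had 2 probes each, Tet3 and Tdg 3 each, and the other genes 1 each. Of the 16 probes, 14 were well above background on all 12 arrays. The remaining 2 were both of Tet3, and they were well above background on 10 arrays (A_52_P491273) and on 1 array (A_51_P199339).

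The 12 arrays hold 1 iPS cell clone each, 6 Aid+/+ and 6 Aid-/-, and all clones carry the Nanog-GFP reporter, are male and have a mixed C57BL6, DBA and 129S4 background. The clones came from GFP-positive colonies of embryonic fibroblasts infected with retroviruses for Klf4, Sox2 and Oct3/4 and, in some experiments, c-Myc. The labels do not say which clones received c-Myc. Each clone is 1 colony, grown with LIF and puromycin, and its RNA was taken at passage 6 on gelatin, where no feeder cells were added. By their names they form 4 series of 3 clones: 967B (967B2, 967B4, 967B6) and 979B (979B1, 979B3, 979B4) are Aid+/+, and 979F (979F1, 979F2, 979F3) and 981E1/4/5 (the clones 981E1, 981E4 and 981E5) are Aid-/-. The 967B arrays lay on slide 1, the 979F arrays on slide 2 and the 979B and 981E1/4/5 arrays on slide 3, so that genotype could be compared within a slide only between 981E1/4/5 and 979B, and within a shared clone number only between 979F and 979B. The labels do not say whether clones of a series came from the same embryo, so the spread between clones may be smaller than that between animals.

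DNA methylation is removed from cytosine in steps. TET enzymes oxidise the methyl group to hydroxymethyl, formyl and carboxyl forms, and Tdg cuts out the formyl and carboxyl forms, as well as thymine paired with guanine. Mbd4 removes the same mispaired thymine, while Ung and Smug1 remove uracil, the product that Aid makes from cytosine. Apex1 then cuts the DNA backbone at the empty site, and the gap is filled and ligated. Gadd45 proteins respond to stress and have been proposed to bring repair enzymes to methylated DNA. Pluripotent cells are known for high Tet1 and Tet2 and low Tet3.

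Levels are given as the log2 of the background-corrected signal of a probe minus the log2 of the 75th percentile of its array, so 0 is the 75th percentile and a difference of 1 is a doubling of the signal. They compare clones for the same probe and say nothing of one gene against another. In these bulk samples, fewer cells of a type and less RNA per cell cannot be told apart. A probe was called in a comparison at a Benjamini-Hochberg adjusted p under 0.05 in limma over all 55681 probes.

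The 8 genes listed as pluripotency markers (among them Pou5f1, Nanog, Sox2 and Esrrb) were well above background on every array, with a summed signal of 277 to 394 times the 75th percentile in Aid+/+ clones and 269 to 349 in Aid-/- clones. Of 8 fibroblast markers, Lum was well above background on no array and 4 were on all. The summed fibroblast signal was 1.96 to 15.6 in Aid+/+ clones, lowest in 967B4, and 12.2 to 30.5 in Aid-/- clones, highest in 979F3. Of the 10 genes of early differentiation, Mixl1 was above background on none and 5 on all, and their sum was 1.10 to 3.62 in Aid+/+ and 1.12 to 2.54 in Aid-/- clones. The genotype of every clone was taken from its label.

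None of the 10 genes was called between the clones labelled Aid-/- and those labelled Aid+/+. No member probe was called, against 0.0611% of all probes (34 probes), and at an unadjusted p under 0.05 there was 1 of 16 (6.25%), Mbd4, against 13.6% of all probes. The methods' t-test with Benjamini-Hochberg adjustment also called none of the 16, against 360 over all probes. At an unadjusted p under 0.05 that test had 3 of the 16, and its share of all probes is not given here. The differences were small. Over the 14 probes well above background on all arrays, the largest was 0.30 in size, and the median size was 0.14, beside 0.16 over all 28392 probes detected in this way. A missed threshold does not show that the genotypes are alike, so the 95% intervals are given with each difference.

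**Figure D1:**
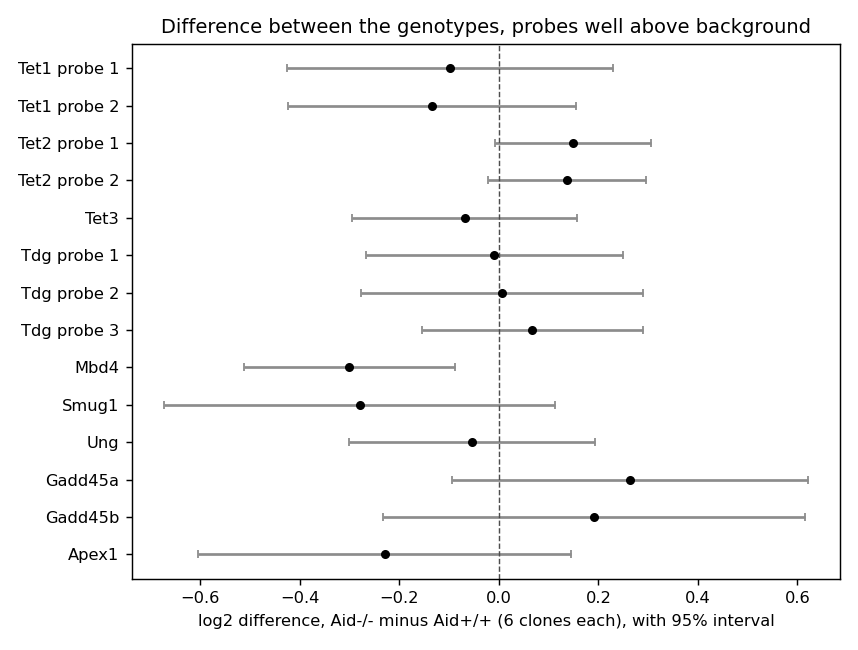
Difference in log2 signal between clones labelled Aid-/- and Aid+/+ (x axis, 6 clones of each) for the 14 probes well above background on all arrays (y axis), as limma's estimate (point) with its 95% interval (bar). Only the interval of Mbd4, -0.51 to -0.09, leaves out 0 before adjustment, and its adjusted p was 0.21.

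Of the Tet genes, Tet1, the main dioxygenase of pluripotent cells, ranged from 4.70 to 5.38 (median 5.23) in Aid+/+ clones and from 4.59 to 5.31 (median 5.06) in Aid-/- clones. The ranges overlapped almost entirely, with averages of 5.13 ± 0.25 and 5.03 ± 0.27 (SD, n = 6 each). The difference was -0.10 (95% interval -0.43 to 0.23, adjusted p = 0.849), and its second probe gave -0.14 (-0.42 to 0.15). Without each clone in turn, the difference of the first probe lay between -0.18 and -0.0111. The probes followed each other closely over the 12 clones (Pearson r = 0.958, across clones that share slides and series).

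Tet2, which lacks the CXXC domain of the other Tet genes, was the steadiest member. It lay between 2.89 and 2.98 (median 2.91) in Aid+/+ clones and between 3.00 and 3.24 (median 3.04) in Aid-/- clones. Every Aid-/- clone was above every Aid+/+ clone for this probe, a separation that 2.17% of all probes showed, but the step was only 0.15 (95% interval -0.01 to 0.31, adjusted p = 0.391), and it was not called. For the second Tet2 probe, with 1.33 to 1.48 in Aid+/+ and 1.44 to 1.66 in Aid-/- clones, the groups overlapped, and the difference was 0.14 (-0.02 to 0.30). Its SD over the 12 clones was 0.10 for either probe, and 2.71% and 2.52% of detected probes varied less.

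Tet3, the dioxygenase of the oocyte and of differentiating cells, ranged from -1.09 to -0.63 (median -0.73) in Aid+/+ and from -0.98 to -0.74 (median -0.90) in Aid-/- clones, a difference of -0.07 (95% interval -0.29 to 0.16, adjusted p = 0.846; -0.12 to -0.0302 without each clone in turn). Its 3 probes did not move together (r between -0.09 and 0.24), and the dimmest had a level near background, at -7.10 to -3.94, so that only the brightest is taken further. The others gave differences of 0.21 (A_52_P491273, -0.18 to 0.60), opposite in sign, and -0.15 (A_51_P199339, -1.27 to 0.97).

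Among the glycosylases, Tdg was level between the genotypes. It ranged from 0.07 to 0.58 (median 0.43) in Aid+/+ and from 0.15 to 0.57 (median 0.44) in Aid-/- clones, a difference of -0.01 (95% interval -0.27 to 0.25, adjusted p = 1.00). A second probe followed the first (r = 0.952), and the third did not (r = -0.04). The differences of these probes were 0.01 (-0.28 to 0.29) and 0.07 (-0.15 to 0.29).

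Mbd4, which binds methylated CpG and removes thymine opposite guanine, had the smallest p of the members. It lay between 0.39 and 0.78 (median 0.64) in Aid+/+ clones and between 0.13 and 0.45 (median 0.35) in Aid-/- clones. Only 967B6, at 0.39, fell into the Aid-/- range. The averages were 0.61 ± 0.14 and 0.31 ± 0.15 (SD, n = 6 each), and the difference was -0.30 (SE 0.10, adjusted p = 0.21). Its adjusted p was between 0.0564 and 0.342 over the alternatives. The lowest came with slide as a fixed block, which leaves only slide 3 to compare the genotypes. That is the same estimate as the difference within slide 3, -0.47 (981E1/4/5 minus 979B, adjusted p = 0.0564), where series and genotype cannot be told apart. Between the series that share a clone number the difference was -0.22 (979F minus 979B, adjusted p = 0.425). The summed fibroblast signal was also higher in Aid-/- clones, and its part in these values was not tested.

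Smug1, a uracil glycosylase, ranged from -0.44 to 0.66 (median -0.12) in Aid+/+ clones and from -0.51 to -0.06 (median -0.34) in Aid-/- clones. The highest value, 0.66, was that of 967B4, and the next was 0.28. The difference was -0.28 (95% interval -0.67 to 0.11, adjusted p = 0.545), and without 967B4 it was -0.14. Ung, the main uracil glycosylase of replicating cells and the enzyme that acts after Aid in B cells, ranged from 5.09 to 5.67 (median 5.49) in Aid+/+ and from 5.08 to 5.53 (median 5.45) in Aid-/- clones. Its difference was -0.05 (95% interval -0.30 to 0.19, adjusted p = 0.915), and it turned to 0.06 under quantile normalization.

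Gadd45a, a p53 target, ranged from 2.84 to 3.97 (median 3.44) in Aid+/+ and from 3.39 to 3.86 (median 3.69) in Aid-/- clones, a difference of 0.26 (95% interval -0.09 to 0.62, adjusted p = 0.53). Gadd45b, an early response gene of stress and cytokine signals, ranged from 2.51 to 3.21 (median 2.81) and from 2.55 to 3.60 (median 2.88), a difference of 0.19 (-0.23 to 0.62, adjusted p = 0.738). Apex1, the abasic site endonuclease, ranged from 4.95 to 5.43 (median 5.31) and from 4.46 to 5.47 (median 5.06), a difference of -0.23 (-0.60 to 0.15, adjusted p = 0.62). Without each clone in turn, the difference lay between 0.15 and 0.38 for Gadd45a, between 0.0763 and 0.29 for Gadd45b and between -0.31 and -0.11 for Apex1. For Gadd45b and Apex1 the wider spread lay within the Aid-/- clones.

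The 4 clone series were compared by a moderated F-test, which holds the genotype difference as well. It called 4.16% of all probes (2318), but again no member probe. At an unadjusted p under 0.05 it had 4 of the 16 (25.0%), Mbd4, Gadd45a, Gadd45b and Apex1, against 21.9% of all probes. The smallest p was that of Apex1 (adjusted p = 0.0635), followed by Mbd4 (0.124), Gadd45a (0.207) and Gadd45b (0.211). Of the contrasts between series, 1 gave a call, Apex1 in 979F minus 981E1/4/5.

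**Figure D2:**
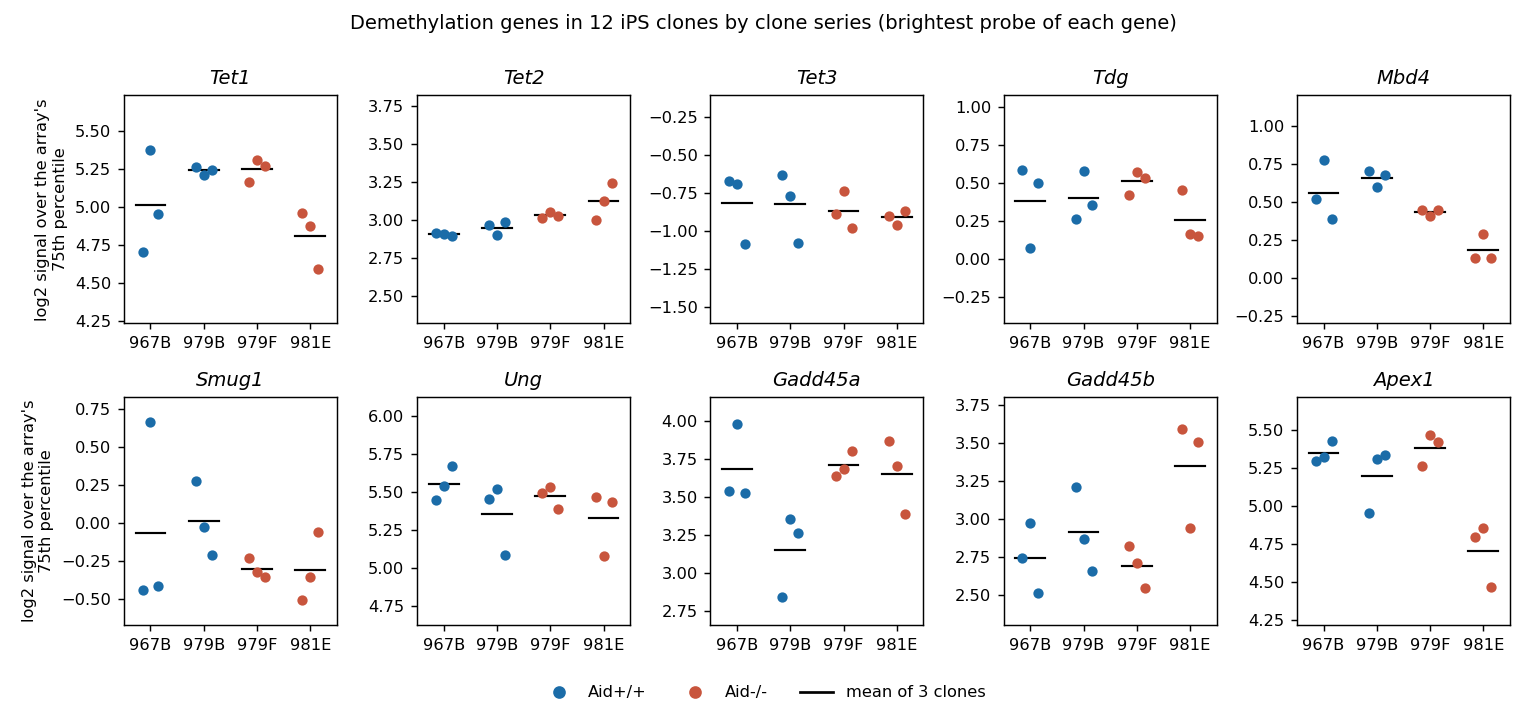
Log2 signal over the 75th percentile of the array (y axis, the same span in each panel) for the brightest probe of each gene in the 3 clones of each series (x axis), coloured by genotype, with the average of the series as a line. The 3 clones of 981E1/4/5 lie below every other clone for Apex1 (at most 4.85 against at least 4.95), and Tet2 stays between 2.89 and 3.24 in all 12.

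The sequence before the gene start is shown for these 4 genes, the members with the smallest p over the series, because methylation in these cells lies mainly at CpG dinucleotides, whose density differs between them. It is taken from RefSeq (mouse build GRCm38.p6, while the arrays were designed on mm9), written 5′ to 3′ on the strand of the gene, and the capitals mark CpG.
Apex1 (chr14:50924699-50924948, plus strand): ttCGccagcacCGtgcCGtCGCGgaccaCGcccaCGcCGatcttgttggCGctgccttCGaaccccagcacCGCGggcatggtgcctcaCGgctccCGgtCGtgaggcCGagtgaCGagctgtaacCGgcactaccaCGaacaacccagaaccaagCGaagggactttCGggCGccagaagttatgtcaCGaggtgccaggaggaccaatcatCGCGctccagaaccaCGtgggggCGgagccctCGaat
Mbd4 (chr6:115853401-115853591, minus strand): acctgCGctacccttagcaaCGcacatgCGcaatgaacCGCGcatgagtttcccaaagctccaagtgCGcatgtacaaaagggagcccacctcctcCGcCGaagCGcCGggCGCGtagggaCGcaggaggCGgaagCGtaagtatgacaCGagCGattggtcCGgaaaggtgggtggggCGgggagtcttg
Gadd45a (chr6:67037408-67037657, minus strand): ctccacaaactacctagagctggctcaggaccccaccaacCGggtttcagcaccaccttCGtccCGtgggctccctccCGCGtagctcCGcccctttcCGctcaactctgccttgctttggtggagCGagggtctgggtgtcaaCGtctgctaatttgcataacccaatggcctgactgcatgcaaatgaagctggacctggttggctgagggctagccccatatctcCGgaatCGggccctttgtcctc
Gadd45b (chr10:80929841-80930090, plus strand): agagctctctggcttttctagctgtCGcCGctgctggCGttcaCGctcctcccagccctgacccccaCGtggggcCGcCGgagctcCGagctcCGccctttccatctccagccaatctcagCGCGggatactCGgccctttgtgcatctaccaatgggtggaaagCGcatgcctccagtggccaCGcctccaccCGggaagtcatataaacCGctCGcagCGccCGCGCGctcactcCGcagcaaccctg
The stretch is the 250 bases before the start, cut to 191 for Mbd4, whose annotated gene begins further upstream. It held 28 CpG in Apex1, 19 in Mbd4, 11 in Gadd45a and 22 in Gadd45b. In the 250 bases before the start, the 10 members had between 10 (Ung) and 51 (Tet2) CpG with a median of 18, and the median over 32851 promoters was 6. The letters CCAAT were found on either strand in 7 of the 10 members and in 33.8% of all promoters, GGGCGG in 8 and in 32.7%, and TATAAA in 1, Gadd45b, and in 12.4%. None of these motifs contains another. These are counts of letters, and no methylation was measured on the arrays.

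Apex1 was set apart by 1 series. Its levels were 5.29, 5.32 and 5.43 in 967B, 4.95, 5.31 and 5.33 in 979B, 5.26, 5.47 and 5.42 in 979F, and 4.79, 4.85 and 4.46 in 981E1/4/5. All 981E1/4/5 clones were below the 9 others, of which 8 lay between 5.26 and 5.47 and 979B1, at 4.95, was nearest to them. The order of the averages was 979F (5.38 ± 0.11), 967B (5.34 ± 0.07), 979B (5.20 ± 0.21) and 981E1/4/5 (4.70 ± 0.21, SD, n = 3 each), and only the step from 979B to 981E1/4/5 was free of overlap. In 979F minus 981E1/4/5, between the Aid-/- series, it was higher by 0.68 (SE 0.15, 95% interval 0.35 to 1.01, adjusted p = 0.0412), which is 1.60-fold. In this contrast 1 of 16 member probes (6.25%) was called, against 3.02% of all probes, and 4 of 16 had an unadjusted p under 0.05, against 18.4%. The call was lost without any of 10 of the 12 clones, among them 981E5 (0.56, adjusted p = 0.141), and it was kept without 967B4 or 979B1.

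The 979F and 981E1/4/5 arrays lay on separate slides, so for this contrast slide and series cannot be told apart. On the slide that 981E1/4/5 shared with 979B, Apex1 was lower by 0.49 in 981E1/4/5 (981E1/4/5 minus 979B -0.49, 95% interval -0.82 to -0.17, adjusted p = 0.0985). Against 967B it was also lower in 981E1/4/5 (-0.64, -0.97 to -0.31, adjusted p = 0.128). The summed fibroblast signal had medians of 27.9 in 979F, 16.4 in 981E1/4/5, 11.1 in 979B and 6.35 in 967B, and its part in these values was not tested. The genotype effect on Apex1 was 0.18 in 979F minus 979B and -0.64 in 981E1/4/5 minus 967B, and the difference of 0.83 (0.36 to 1.29) had an adjusted p of 0.233.

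Gadd45b ran opposite to Apex1. It stood at 2.75, 2.98 and 2.51 in 967B, 3.21, 2.87 and 2.66 in 979B, 2.83, 2.72 and 2.55 in 979F, and 3.60, 2.94 and 3.51 in 981E1/4/5. The clones 981E1 and 981E5 were the highest of all, while 981E4 lay among the others, so no neighbours in the order were free of overlap. Gadd45b was lower by 0.65 in 979F than in 981E1/4/5 (979F minus 981E1/4/5 -0.65, 95% interval -1.12 to -0.18, adjusted p = 0.129). Over the 12 clones Gadd45b and Apex1 had r = -0.88, the strongest relation between any 2 members and a description only, since the clones share slides and series.

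Gadd45a was low in 979B. Its levels were 3.54, 3.97 and 3.52 in 967B, 2.84, 3.35 and 3.26 in 979B, 3.64, 3.68 and 3.80 in 979F, and 3.86, 3.70 and 3.39 in 981E1/4/5. All 979B clones were below the 9 others, and the other series overlapped. The difference between 979F and 979B was 0.56 (95% interval 0.14 to 0.97, adjusted p = 0.217), the farthest from 0 of any member in that contrast, and 979B minus 967B, within Aid+/+, was -0.53 (-0.95 to -0.11, adjusted p = 0.317).

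Mbd4 followed the series in steps. It stood at 0.52, 0.78 and 0.39 in 967B, 0.70, 0.60 and 0.68 in 979B, 0.45, 0.41 and 0.45 in 979F, and 0.13, 0.29 and 0.14 in 981E1/4/5. The 981E1/4/5 clones were below all others, and 979F was below 979B with no overlap, while 967B spanned both. Tet1 was also lowest on average in 981E1/4/5, at 4.96, 4.88 and 4.59, against 5.26, 5.21 and 5.24 in 979B, 5.16, 5.31 and 5.27 in 979F, and 4.70, 5.38 and 4.95 in 967B. The 979B and 979F clones lay between 5.16 and 5.31, and the 967B clones spread further than those of any other series. Tet1 in 981E1/4/5 minus 979B was -0.43 (95% interval -0.81 to -0.05, adjusted p = 0.203), and the second probe gave -0.42 (-0.75 to -0.10, adjusted p = 0.148). Tet2 was highest in 981E1/4/5 and lowest in 967B, with averages of 3.12 ± 0.12 and 2.90 ± 0.01 (981E1/4/5 minus 967B 0.22, 95% interval -0.00348 to 0.44, adjusted p = 0.401). The second Tet2 probe gave 0.25 (0.0465 to 0.46, adjusted p = 0.284).

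**Figure D3:**
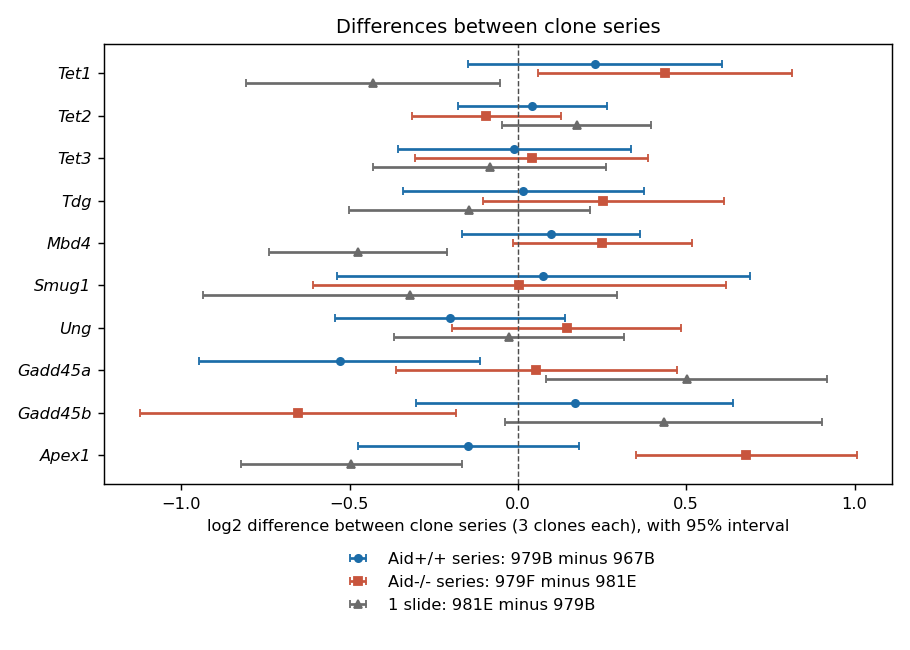
Difference in log2 signal between pairs of clone series (x axis, 3 clones each) for the brightest probe of each gene (y axis), with 95% intervals as bars: 979B minus 967B within Aid+/+ (circles), 979F minus 981E1/4/5 within Aid-/- (squares) and 981E1/4/5 minus 979B on 1 slide (triangles). Apex1 in 979F minus 981E1/4/5, at 0.68, is the only difference that passed the adjusted threshold.

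The other contrasts called no member probe. In 979F minus 979B, 0.614% of all probes were called, and 1 of the 16 had an unadjusted p under 0.05 (Gadd45a), against 14.6%. In 981E1/4/5 minus 967B the share called was 0.196%, and 4 of 16 (the second Tet2 probe, Mbd4, Gadd45b and Apex1) had an unadjusted p under 0.05, against 12.8%. In 981E1/4/5 minus 979B, on 1 slide, 4.13% were called, and 5 of 16 (both Tet1 probes, Mbd4, Gadd45a and Apex1) had an unadjusted p under 0.05, against 18.2%. In 979B minus 967B, within Aid+/+, 0.711% were called, and 2 of 16 (1 Tdg probe and Gadd45a) had an unadjusted p under 0.05, against 10.5%. For the difference between the genotype effects in 979F minus 979B and in 981E1/4/5 minus 967B, 0.106% were called, and 2 of 16 (Gadd45b and Apex1) had an unadjusted p under 0.05, against 9.85%. These contrasts share series with each other. The SD of a member probe over the 12 clones was between 0.10 and 0.35 (median 0.21 over 14 probes), beside a median of 0.26 over all detected probes.

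The rest of the pathway was counted from lists chosen by function. No probe of any list was called between the genotypes. Of all probes, 55.7% had lower averages in Aid-/- clones, and at an unadjusted p under 0.05 8.1% were lower and 5.5% higher, the shares against which the counts below are to be read. Of the other glycosylases (Neil1, Neil2, Neil3, Ogg1, Mutyh, Mpg, Nthl1, with 8 probes, all detected on every array), all 8 had lower averages in Aid-/- clones. Their median was -0.26, beside -0.01 over all probes and -0.06 over detected probes, and 4 had an unadjusted p under 0.05. Mpg, which removes alkylated purines, was at -0.27 (SE 0.11, adjusted p = 0.311), Neil2, for oxidised bases, at -0.69 (SE 0.30, adjusted p = 0.352), and Mutyh, which removes adenine opposite oxidised guanine, at -0.24 (SE 0.11, adjusted p = 0.353). Ogg1, for oxidised guanine itself, was at -0.06 (SE 0.10, adjusted p = 0.852).

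Of the genes that act after base removal (12 genes, 14 probes), 3 probes were lower and 1 higher in Aid-/- at an unadjusted p under 0.05, and the median was -0.01. Pcna, the replication clamp, was at -0.25 (SE 0.08, adjusted p = 0.217), with 6.45 to 6.78 in Aid+/+ and 6.22 to 6.42 in Aid-/- clones. Apex2, a relative of Apex1, was at 0.47 (SE 0.16, adjusted p = 0.231). It was higher in 981E1/4/5 than in 979B by 0.83 (SE 0.19, adjusted p = 0.0377), the reverse of Apex1 in that contrast, and this call was lost without any of 9 of the 12 clones. It was the only 1 of the 14 probes called in that contrast, against 4.13% of all probes and 6.30% of detected probes. Parp2, a sensor of strand breaks, was the only 1 of the 14 probes called over the series (adjusted p = 0.0485). Of all probes 4.16% were called there, and of detected probes 5.94%. The Parp2 averages were 2.27 ± 0.22 in 967B, 1.82 ± 0.08 in 979B, 1.59 ± 0.03 in 979F and 1.80 ± 0.04 in 981E1/4/5. Its call was lost without any of 10 of the 12 clones.

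Of the TET cofactors and partners (12 genes, 18 probes, 15 of them well above background on all arrays), 2 probes were higher and 2 lower in Aid-/- at an unadjusted p under 0.05, with a median of -0.11. Both higher probes were of Cxxc4, a CXXC protein that binds TET2, and they were well above background on 0 and 1 of the 12 arrays, so no fold is given. Idh1, which makes the oxoglutarate that TET enzymes use, was at -0.39 (SE 0.14, adjusted p = 0.262), and Uhrf2, a reader of hydroxymethylcytosine, at -0.41 (SE 0.16, adjusted p = 0.286) by its brighter probe and -0.14 (SE 0.20, adjusted p = 0.837) by the other. Rnf4, a ubiquitin ligase that acts with Tdg, was higher in 981E1/4/5 than in 979B by 0.54 (SE 0.12, adjusted p = 0.0401), a call lost without any of 10 of the 12 clones. It was the only 1 of the 18 probes called in that contrast, against 4.13% of all probes. Of the proposed Gadd45 partners (6 genes, 8 probes) 1 had an unadjusted p under 0.05. This was Elp3, of the elongator complex, at -0.20 (SE 0.09, adjusted p = 0.333). Gadd45g, another Gadd45 gene, was at 2.11 in 967B4 and between 3.52 and 5.35 in the 11 others, so that its difference of 0.41 (SE 0.48, adjusted p = 0.775) fell to 0.00 without that clone.

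The p53 and stress response genes, of which Gadd45a is one by function, had more calls over the series than any other list. Of 13 probes for 11 genes, 9 had higher averages in Aid-/- clones. The median was 0.26, beside -0.01 over all probes and -0.06 over detected probes, and 4 had an unadjusted p under 0.05, all higher. Cdkn1a, the cell cycle inhibitor p21, lay between 1.46 and 1.95 in Aid+/+ and between 2.05 and 2.61 in Aid-/- clones by its brighter probe. The groups did not overlap, a separation that 2.17% of all probes showed. Its difference of 0.61 (SE 0.13, adjusted p = 0.0925) was not called. The dimmer Cdkn1a probe gave 0.57 (SE 0.23, adjusted p = 0.31). For that probe the groups overlapped, at -2.48 to -1.31 in Aid+/+ and -1.94 to -0.83 in Aid-/- clones.

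Over the series, 3 of the 13 probes were called, against 4.16% of all probes: Atf3, a stress-induced transcription factor (adjusted p = 0.02), Sesn2, a sestrin (0.0253), and Mdm2, the ubiquitin ligase of p53 (0.0365). These calls were kept in 10, 5 and 4 of the 12 fits that left out 1 clone. Atf3 lay between -3.66 and -2.17 in the 979B and 979F clones and between -1.32 and 0.61 in the 967B and 981E1/4/5 clones. In 981E1/4/5 minus 979B, on 1 slide, 4 of 13 were called, against 4.13% of all probes, all higher in 981E1/4/5, namely Atf3 by 2.84 (SE 0.50, adjusted p = 0.0145), Sesn2 by 0.94 (SE 0.14, adjusted p = 0.00785), Mdm2 by 0.90 (SE 0.15, adjusted p = 0.0114) and the p53-induced phosphatase Ppm1d by 0.88 (SE 0.17, adjusted p = 0.0203). The calls of Sesn2 and Mdm2 were kept without each of the 12 clones in turn, and those of Atf3 and Ppm1d in 11 and 8 of 12. In 979F minus 981E1/4/5, 3 of 13 were called, against 3.02% of all probes, all lower in 979F, namely Atf3 (-2.24, SE 0.50, adjusted p = 0.0436), Sesn2 (-0.62, SE 0.14, adjusted p = 0.0464) and Trp53inp1, a p53-induced nuclear protein (-1.01, SE 0.19, adjusted p = 0.0271). The call of Trp53inp1 was kept in 7 of 12 leave-outs, and those of Atf3 and Sesn2 in this contrast in 2 each. Within Aid+/+, Atf3 was lower in 979B than in 967B (-2.76, SE 0.50, adjusted p = 0.0396), a call kept in 3 of 12. All 13 probes were well above background on all 12 arrays. Among the 28392 probes detected in this way, larger shares were called than among all probes. They were 5.94% over the series, 6.30% in 981E1/4/5 minus 979B and 4.40% in 979F minus 981E1/4/5. Ppm1d and Trp53inp1 were named after their values were seen. By the brightest probe of each of the 11 genes, 981E1/4/5 had the highest average in 9, all but Bbc3 (the apoptosis gene Puma) and Ddit3 (the stress factor Chop), and the lowest in Ddit3. Series 979B had the lowest average in 7, and the highest in Bbc3 and Ddit3. The share of all probes with such an order was not computed. By clone, the summed signal of the 11 genes was 130 in 981E1, 172 in 981E4 and 192 in 981E5. In the 967B clones it was 124 to 141, a range that holds 981E1. The Atf3 averages of 981E1/4/5 and 967B were close, at -0.49 and -0.56.

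**Figure D4:**
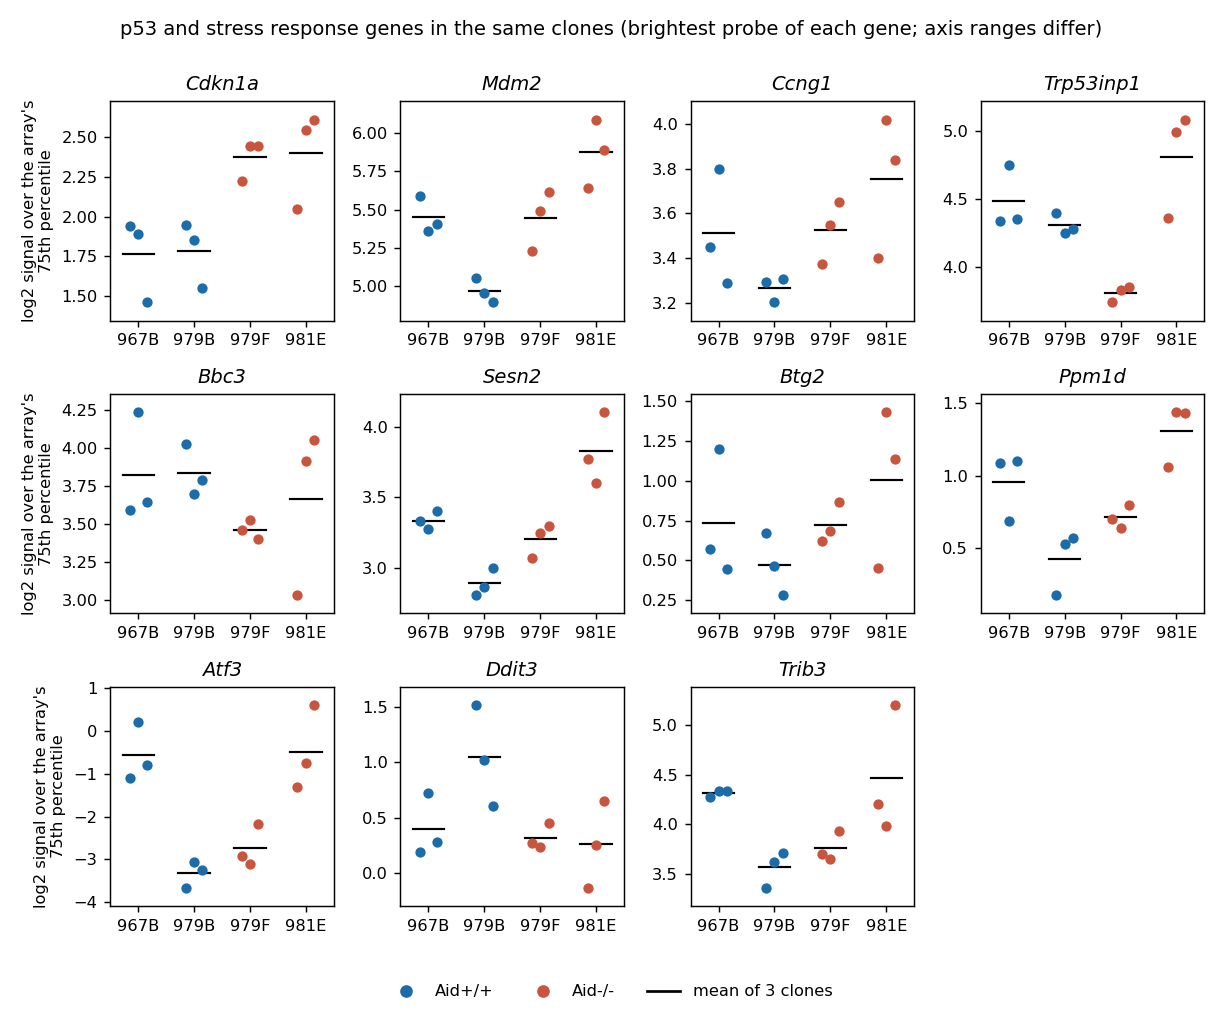
Log2 signal over the 75th percentile of the array (y axis, ranges differ between panels) for the brightest probe of each of the 11 p53 and stress response genes in the 3 clones of each series (x axis), coloured by genotype, with series averages as lines. Mdm2 averages 4.97 in 979B and 5.87 in 981E1/4/5. For this probe of Cdkn1a every Aid-/- clone is above every Aid+/+ clone. Of all probes, 2.17% separate the genotypes in this way, and the dimmer Cdkn1a probe does not.

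The genes whose levels followed each member most closely over the 12 clones were taken from 17620 named probes well above background on all arrays. The closest to Apex1 were Ppat (r = 0.98), Nop56 (0.978) and Isy1 (0.972), to Mbd4 Dlg3 (0.971), Ppfia3 (0.969) and Mrps21 (0.959), to Smug1 Pdk4 (0.978), Slc25a30 (0.968) and Dhrs7 (0.966), and to Ung Wdr89 (0.99), Sgsh (0.986) and Sp110 (0.985). For Tet1 they were Zfp217 (0.96), Kifbp (0.954) and Zfp395 (0.95), for Tet2 Man2b1 (0.938), Zbtb20 (0.921) and Vegfd (0.91), for Tet3 Trafd1 (0.877), Bard1 (0.805) and Krtap19-5 (0.799), and for Tdg Cand1 (0.94), Ifnar1 (0.935) and Rtn2 (0.933). For Gadd45a they were Tnrc18 (0.909), Nagk (0.9) and Pbxip1 (0.882), and for Gadd45b Col20a1 (0.929), Pan2 (0.917) and Hk1 (0.91). Likeness over 12 clones that share slides and series is a description, and values of this size are picked as the highest of many.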

How the data were processed

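Expression was read on 1-colour Agilent arrays (Cy3), 1 for the RNA of each clone. The authors deposited the processed intensity of each spot from Feature Extraction 10.7.3.1, corrected for background on each array and not between arrays, and median spot and background intensities. They also deposited log2 values normalized to the 75th percentile, as the methods' GeneSpring GX step does, used as an alternative. Here log2 of the processed intensity was taken, control and outlier spots were left out, repeat spots of 1 probe were averaged, and each array's 75th percentile (418 to 509 before the log) was subtracted. No spot was saturated. Precision rests on the 12 arrays. Of 28685 probes with an accession, 27235 were named through RefSeq (GRCm38.p6).

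Genotypes, and clone series with their contrasts, were fitted with limma 3.58.1 (R 4.3.3, lmFit and eBayes) over all 55681 probes, with no covariate. The fits were tested on simulated arrays of independent clones, with no slide effect and, for the genotype fit, no series effect. Such arrays cannot show how slide or series bears on the genotype comparison. The members, lists and tests were chosen with earlier results of these data known. All members are described by every probe and by clone for the brightest one. List genes are named where a probe was called between genotypes, or was among the 3 with the smallest p of its list for genotype or clone series. The most similar genes are the 3 with the highest Pearson r. Alternatives were other normalizations, background correction and filters, the methods' t-test, slide or series as a block, subsets of slides and clones, and each clone left out in turn. Python 3.11.15 was used for summaries and plots. The level of the targeted gene is not reported here.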

Additional observations from a re-analysis of the deposited data

Results flagged for a closer look

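In 28 groups of 6 clones (1 genotype, 1 member probe), 1 clone stood apart from the other 5 by Dixon's criterion in 2 groups, and chance alone gives about 1 in 20. Ung was at 5.08 in the Aid-/- clone 981E4, where the next value was 5.39. The Aid+/+ clone 979B4 was about as low, at 5.09, but did not meet the criterion in its group. Apex1 was at 4.95 in the Aid+/+ clone 979B1, where the next value was 5.29. No member probe passed the adjusted threshold for a genotype effect that differs between the 979F and 979B clones and the others.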

How the results depend on the processing

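No member probe was called between the genotypes under any of the 27 alternatives, which include the methods' t-test on both sets of values, slide and clone series as blocks, slide 3 alone, and 979F with 979B alone. No analysis paired by clone was possible, because the labels tie no single Aid-/- clone to a single Aid+/+ clone. By series, only 979F and 979B share a clone number. The count over all probes was less steady. Against 34 in the comparison of genotypes, it was 518 under normexp background correction, 109 and 481 with filters on at least 1 and on all 12 arrays, 288 with an intensity trend and robust estimation, 360 by the methods' t-test (376 on the deposited values), 2299 with slide as a fixed block, 15 with slide and 7 with series as a random block, 283 in 979F and 979B alone and 816 on slide 3 alone. With slide as a fixed block, only slide 3 compares the genotypes, because slides 1 and 2 hold 1 genotype each. The count of 2299 is thus that of 1 series against 1 other on slide 3. Series and genotype cannot be told apart there, so this setting gives no genotype effect adjusted for slide. The fit of slide 3 alone compares the same series. Quantile normalization called 2 probes fewer than the filter on at least 1 array. Without each clone in turn the count fell as low as 6 (979F2) and rose to 67 (967B2). Without 967B4 the count over the series rose from 2318 to 4810 and that of 979F minus 979B from 342 to 1312.

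Over the clone series, where no member was called, quantile normalization called 1 probe (Apex1) and normexp 2 (Mbd4 and Apex1). The filter on at least 1 array called 1, the filter on all 12 arrays 2 and the trend 1. Over all probes these settings called, in the same order, 3197, 4052, 3245, 4574 and 3498, against 2318 in the main fit. In 981E1/4/5 minus 967B, the filter on all 12 arrays called 1 (Apex1), and 600 over all probes it tested, against 109 in the main fit. In 981E1/4/5 minus 979B, quantile normalization, normexp, the filter on at least 1 array and leaving out 967B4 with 981E5 each called 1 (Mbd4). The filter on all 12 arrays and the trend each called 2 (Mbd4 and Apex1). Without each clone in turn the count was 0 to 2, with 2 (Mbd4 and Tet1) without 967B4. Over all probes, 2299 in the main fit, the counts were 2958, 3227, 3097 and 3554 for the settings with 1 call named first. They were 3840 and 3156 for the filter on all 12 arrays and the trend, and 4225 without 967B4. In 979F minus 981E1/4/5 the count fell from 1 to 0 without 967B4 and 981E5 together, and was 0 to 1 without each clone in turn. The filters test fewer probes (39333 and 28392), which changes the adjustment, and the cause of the other shifts was not tested.

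Genotype differences near 0 changed sign, and none of these was called. Tet1 was at 0.0135 under quantile normalization, 0.00611 in 979F and 979B alone and 0.0389 without 967B4 and 981E5. Tdg was at 0.00649 under quantile normalization, 0.0468 with the percentile over detected probes, 0.11 in 979F and 979B alone and 0.0062 by the median of its probes, and ranged from -0.0738 to 0.0365 without each clone in turn. Ung was at 0.0628 under quantile normalization, 0.00182 with the percentile over detected probes and 0.12 in 979F and 979B alone, and ranged from -0.13 to 0.0101. In 979F and 979B alone Gadd45b was at -0.22 and Apex1 at 0.18. Gadd45g was at -0.10 with slide as a fixed block and on slide 3 alone, and ranged from -0.00357 to 0.62 without each clone in turn.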
